A study of Mus musculus with 12 samples.

Results

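Integrins are the receptors with which epithelial cells hold and crawl over matrix, and 10 integrin chain genes are described here in keratinocytes of mouse skin wounds: Itga5, Itga3, Itga2, Itgav, Itga9, Itga1, Itgb1, Itgb5, Itgb6 and Itgb8. They are the sort marker Itga5 and the other chains that bind matrix of a wound, taken by name from a count table of 55315 gene symbols, and all 10 were found and passed the filter on low counts with 16677 genes in all. RNA was sequenced in 12 libraries, 3 in each of 4 groups: RORgt deficient A5-POS, RORgt deficient A5-NEG, WT A5-POS and WT A5-NEG. All mice had been wounded 3 days earlier, and a skin ring 0.25 mm wide at the wound edge was digested with Liberase, with 2 or 3 mice pooled for each group in a sequencing run. Live cells with Epcam and integrin alpha6 were sorted without cells carrying CD45, CD31 or CD117, and integrin alpha5 on the surface split them into A5-POS cells, which the study calls the migrating tongue, and A5-NEG cells, which it calls the wound edge. The titles name the RORgt deficient mice GFP-KI, and no age, sex or strain is stated for any group.

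An integrin is a pair of 1 alpha and 1 beta chain, and the pair decides which matrix a cell binds. Itgb1 codes for beta1, the shared partner of alpha5 (fibronectin), alpha3 (laminin-332), alpha2 and alpha1 (collagens) and alpha9 (tenascin-C and other ligands), while alphav, the product of Itgav, pairs with beta5 (vitronectin), beta6 (fibronectin, tenascin-C and latent TGF-beta), beta8 (latent TGF-beta) and also beta1. Keratinocytes of resting epidermis sit on laminin, and keratinocytes at a wound front are known to turn to the fibronectin-binding integrins alpha5beta1 and alphavbeta6.

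The stretches upstream of Itga5, Itgav, Itgb6 and Itga2 are shown because these 4 chains had more mRNA in the RORgt deficient library in each of 6 pairs of same-numbered libraries. So did 9.89% of all genes tested. None of the 4 passed an adjusted p under 0.05 between genotypes in the edgeR fit of the 4 groups. RefSeq (GRCm38.p6) held windows for 10 of the 10 genes, and the 250 bases before the RefSeq start are given 5′ to 3′ on the gene's own strand. In GENCODE M21 (GRCm38) the genes span chr15:103344286-103366763 (Itga5), chr2:83724397-83806916 (Itgav), chr2:60598292-60722643 (Itgb6) and chr13:114833081-114932100 (Itga2). For Itgb6 the stretch stops at 210 bases, where the GENCODE exon begins, and a second RefSeq start of Itgb6 is not shown. Capitals mark the GC box, GGGCGG or its reverse complement CCGCCC.
Itga5 chr15:103366792-103367041 (- strand): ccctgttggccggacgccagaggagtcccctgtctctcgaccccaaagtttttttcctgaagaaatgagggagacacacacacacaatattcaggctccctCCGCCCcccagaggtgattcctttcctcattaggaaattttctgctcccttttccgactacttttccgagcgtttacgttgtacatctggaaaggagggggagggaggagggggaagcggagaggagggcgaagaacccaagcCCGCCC
Itgav chr2:83724147-83724396 (+ strand): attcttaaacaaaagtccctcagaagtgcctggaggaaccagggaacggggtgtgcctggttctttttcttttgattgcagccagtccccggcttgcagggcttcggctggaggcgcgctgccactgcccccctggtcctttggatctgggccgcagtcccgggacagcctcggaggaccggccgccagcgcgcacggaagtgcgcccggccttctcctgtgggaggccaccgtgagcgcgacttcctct
Itgb6 chr2:60722644-60722853 (- strand): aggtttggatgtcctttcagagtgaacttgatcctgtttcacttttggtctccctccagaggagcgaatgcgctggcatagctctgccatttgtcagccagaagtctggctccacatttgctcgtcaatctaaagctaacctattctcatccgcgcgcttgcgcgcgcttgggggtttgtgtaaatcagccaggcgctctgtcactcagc
Itga2 chr13:114932101-114932350 (- strand): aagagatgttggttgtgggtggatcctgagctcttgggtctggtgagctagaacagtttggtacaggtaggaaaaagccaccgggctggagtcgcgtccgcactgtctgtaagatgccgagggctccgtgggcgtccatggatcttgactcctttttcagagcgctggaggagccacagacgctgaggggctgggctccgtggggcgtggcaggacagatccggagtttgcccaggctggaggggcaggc
The Itga5 stretch had 2 GC boxes and the other 3 had none, while 32.7% of all 32851 RefSeq windows of 250 bases held at least 1. The letters TGANTCA (AP-1), which 6.75% of the windows held, and CATTCC (TEAD), which 12.6% held, were searched on both strands and were not in these 4 windows, and no motif overlapped another. A match or its absence describes these letters only.

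Depth was 29293687 to 74563616 counts a library, of which mitochondrially encoded genes took 0.312% to 0.853%. All 10 of 10 keratinocyte markers were detected in each library, at a summed 35251 to 83044 CPM (counts scaled to a common library size). The 16 fibroblast markers, a cell type that the Epcam gate should leave out, summed to 9996 to 16956 CPM in RORgt deficient A5-POS, 68.7 to 530 CPM in RORgt deficient A5-NEG, 3950 to 8659 CPM in WT A5-POS and 97.7 to 245 CPM in WT A5-NEG libraries. All 16 were detected in each A5-POS library and 15 or 16 in each A5-NEG library. Macrophage and monocyte markers, all 15 of them detected, summed to 97.0 to 252 CPM, 99.5 to 668 CPM, 111 to 184 CPM and 99.9 to 1642 CPM in the same order of groups. Langerhans and dendritic cell markers, 7 or 8 of 8 detected, summed to 376 to 833 CPM, 273 to 1143 CPM, 281 to 873 CPM and 294 to 3507 CPM. The part of these other cells in the results below was not tested, except where a sentence says so. In sorted bulk RNA, fewer cells of a type and less RNA per cell cannot be told apart.

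**Figure D1:**
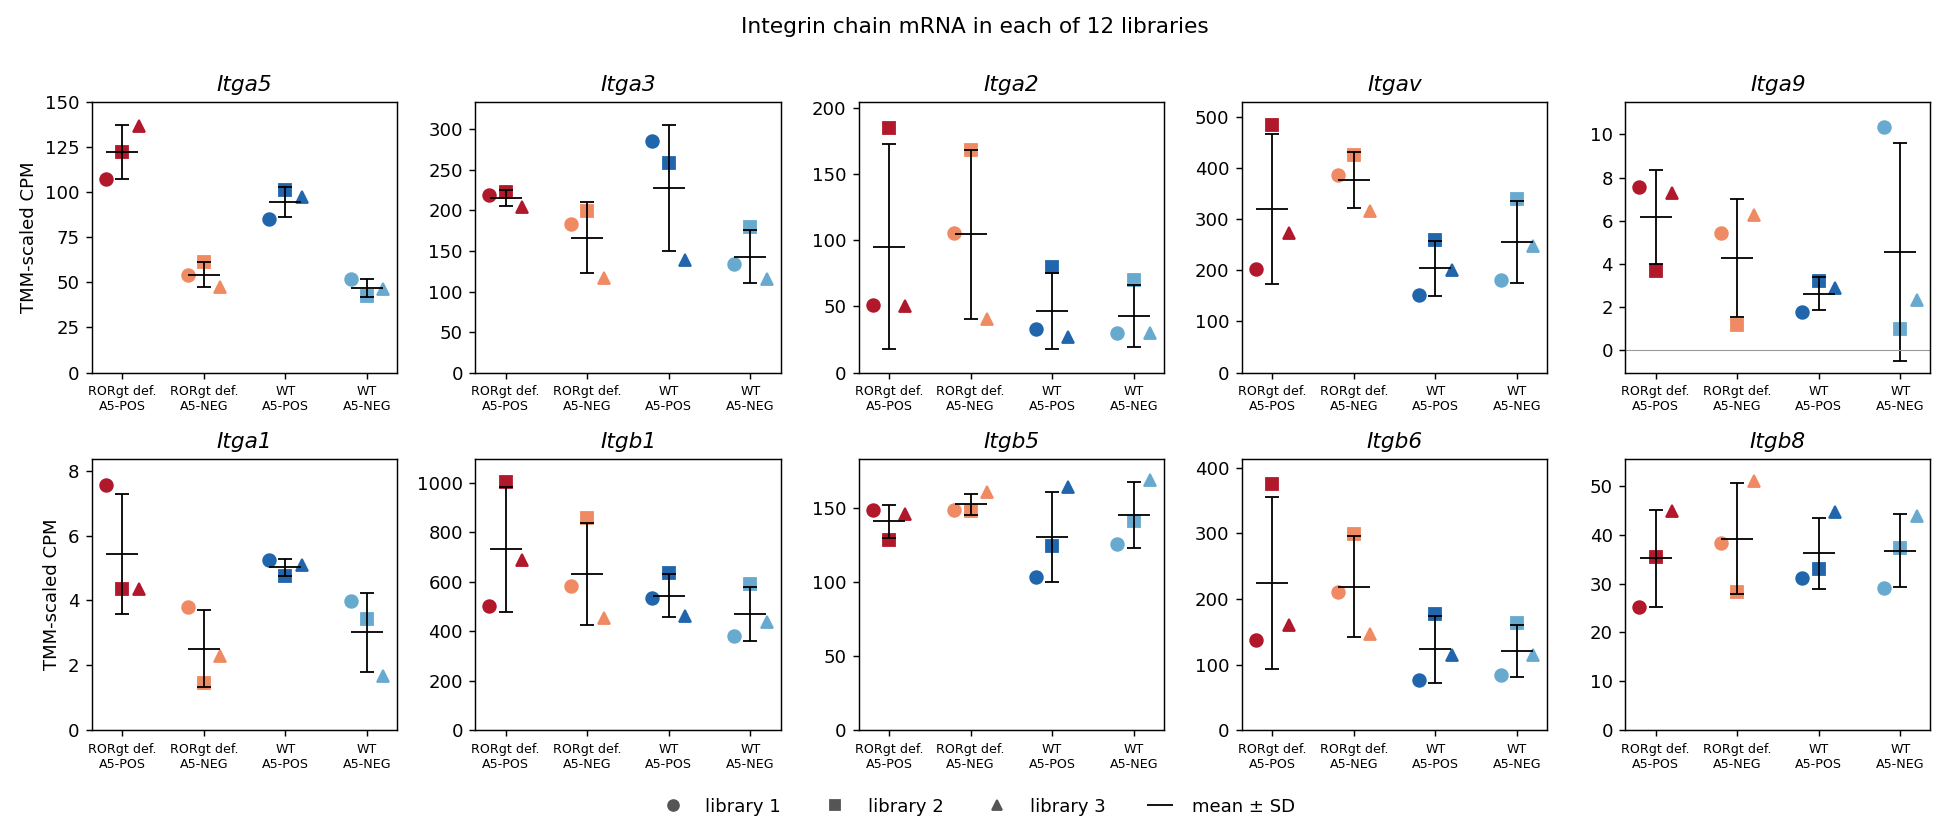
Level of each integrin chain gene in every library, in CPM scaled by TMM (a factor that evens out library composition), with a panel per gene and its own axis. Symbols give the library number, and bars the mean and SD of 3 libraries. Itga5 was at 85.1 CPM or more in the 6 A5-POS libraries and at 61.3 CPM or less in the 6 A5-NEG libraries.

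Levels of different chains were set side by side per kilobase of merged exons (GENCODE M21). On this scale of CPM per kb, the shared chain Itgb1 was the highest of the 10 in each group, at 179 ± 61.6 in RORgt deficient A5-POS, 155 ± 50.5 in RORgt deficient A5-NEG, 133 ± 21.1 in WT A5-POS and 115 ± 26.7 in WT A5-NEG libraries (SD, n = 3). It did not overlap the next chain in any group. Itgb5, Itga3, Itgav and Itgb6 followed with group means between 17.0 and 43.0 CPM per kb, and most neighbours among them overlapped. Itga5 had 24.8 ± 2.98 CPM per kb in RORgt deficient A5-POS, 10.99 ± 1.403 in RORgt deficient A5-NEG, 19.1 ± 1.69 in WT A5-POS and 9.49 ± 0.997 in WT A5-NEG libraries (SD, n = 3). In WT A5-POS cells it stood beside Itgav on this scale (18.9 ± 5.01 CPM per kb), and these overlapped. That placement depends on the length used. Per kb of the longest transcript, WT A5-POS libraries had 19.3, 22.9 and 22.0 for Itga5, against 21.4, 36.7 and 28.4 for Itgav. Itga2 had group means of 6.04 to 14.7 CPM per kb and Itgb8 of 3.18 to 3.55 CPM per kb. Itga9, at 0.339 to 0.8005 CPM per kb, and Itga1, at 0.135 to 0.292 CPM per kb, were the lowest of the 10 in each group, with 35 to 576 and 51 to 398 counts in a library.

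Together the 6 alpha chains can be read as a make-up, each as a share of their summed CPM per kb. The size of a share depends on the length used, here that of merged exons. Itga6, at 525 to 1069 CPM in a library, and Itgb4, at 377 to 842 CPM, are not members, so no share includes them. Itga5 made up 23.9% ± 5.20 of the mRNA of these 6 alpha chains in RORgt deficient A5-POS, against 12.4% ± 1.83 in RORgt deficient A5-NEG libraries, and 23.1% ± 5.37 in WT A5-POS, against 15.2% ± 4.23 in WT A5-NEG libraries (SD, n = 3). Itgav took 27.0% ± 5.88 in RORgt deficient A5-POS, against 39.4% ± 4.60 in RORgt deficient A5-NEG libraries, and 22.6% ± 5.82 in WT A5-POS, against 36.2% ± 5.67 in WT A5-NEG libraries. Neither share overlapped between fractions in either genotype. The fractions were sorted on alpha5, so the higher share of Itga5 in A5-POS cells checks the sort and is given as a description. The exact two-sided permutation test, here and below run without pairing libraries by number, gave p = 0.1 for each of these 4 differences. With 3 against 3 libraries it can give no smaller p, so it cannot decide whether the shares differ. Shares add up to a whole, so those of the other chains sum to less where that of Itga5 is higher. Among the 5 alpha chains other than Itga5, Itgav had 35.3% ± 6.11 in RORgt deficient A5-POS, against 45.1% ± 6.25 in RORgt deficient A5-NEG libraries (exact p = 0.2), and 29.7% ± 9.48 in WT A5-POS, against 42.6% ± 5.83 in WT A5-NEG libraries (exact p = 0.2), and the groups then overlapped. Of these 6 chains, Itga3 had the largest mean share in A5-POS cells, at 36.5% ± 7.49 in RORgt deficient and 46.2% ± 10.9 in WT libraries. Of the 4 beta chains, Itgb1 made up 61.1% to 75.3% in every library.

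**Figure D2:**
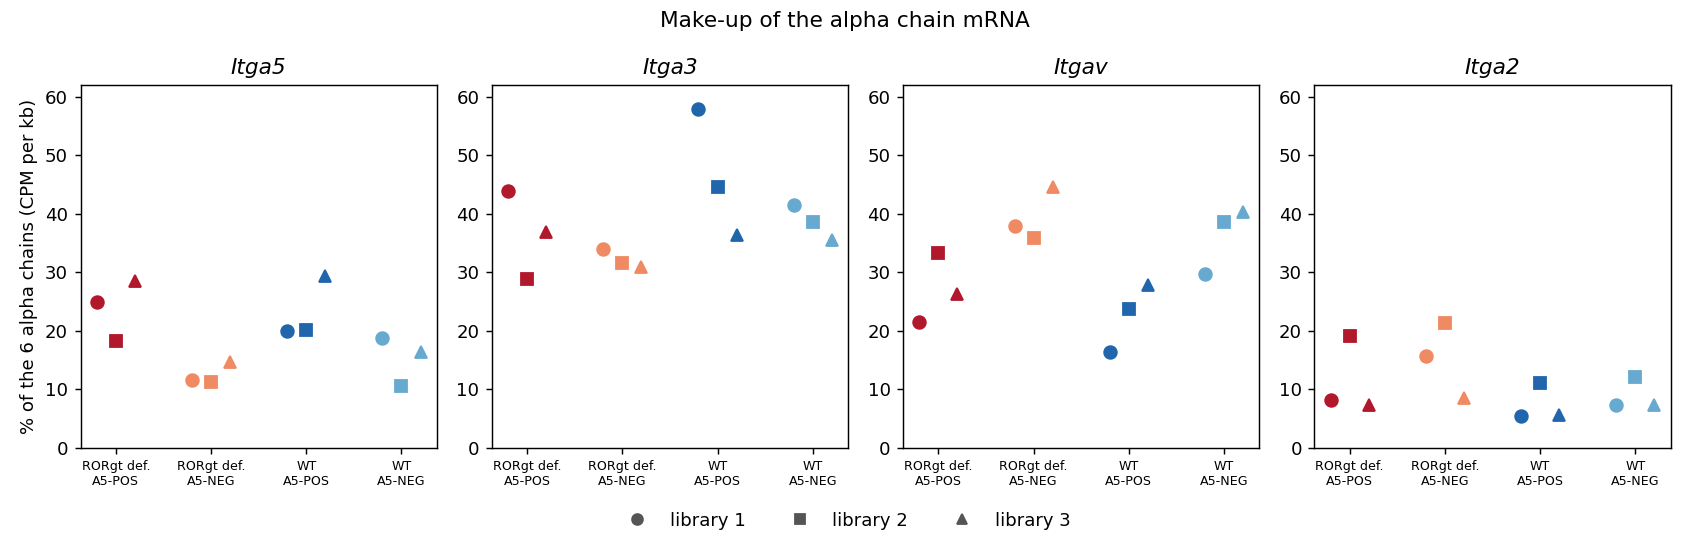
Share of 4 alpha chains in the summed CPM per kb of the 6 alpha chains, in percent, for each library. The share of Itga5 was 18.3% or more in A5-POS libraries of RORgt deficient mice and 14.5% or less in their A5-NEG libraries, and that of Itgav lay the other way round.

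Itga5, the alpha chain of the main fibronectin receptor, was chosen for the sort, so its difference between fractions checks the sort and is given as a description. It had 107, 122 and 137 CPM in RORgt deficient A5-POS libraries, against 54.0, 61.3 and 47.4 CPM in RORgt deficient A5-NEG libraries. In WT mice it had 85.1, 101 and 97.2 CPM in A5-POS, against 52.0, 42.2 and 46.3 CPM in A5-NEG libraries. All A5-POS libraries were above all A5-NEG libraries. The log2 fold change of A5-POS over A5-NEG was 1.17 ± 0.14 (SE) in RORgt deficient mice and 1.01 ± 0.14 in WT mice (edgeR quasi-likelihood test, Benjamini-Hochberg adjusted p = 0.000468 and 0.00293). With all libraries of 1 number left out, which leaves 2 in a group, the call was lost without number 3 in both genotypes (adjusted p = 0.0806 and 0.151) and without number 2 in WT mice (adjusted p = 0.0719). The mRNA was also present in the A5-NEG fraction, at a mean of 54.2 ± 6.92 CPM in RORgt deficient and 46.8 ± 4.92 CPM in WT libraries (SD, n = 3). The difference in this A5 effect between the genotypes was 0.16 ± 0.20 on the log2 scale (interaction, unadjusted p = 0.439, adjusted p = 0.9999), with a 95% interval from -0.27 to 0.59.

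The other 9 chains were compared between A5-POS and A5-NEG cells to see which of them go with surface alpha5. At an adjusted p under 0.05 in the fit of the 4 groups, Itga5 was the 1 member called in each genotype and none of the other 9 was, where 5.52% of all genes tested were called in RORgt deficient mice and 3.45% in WT mice. The median log2 change of the other 9 was 0.03 in RORgt deficient and 0.03 in WT mice, against 0.00 and 0.03 for all genes. At an unadjusted p under 0.05 the count was 2 in each genotype, with Itga1 added in RORgt deficient mice and Itga3 in WT mice, near the 21.8% and 20.5% of all genes. DESeq2 (10.6% and 8.91% of its genes) and limma-voom (9.39% and 5.93%) called 1 each in RORgt deficient and WT mice. Libraries of the same number deviated together, so the fit with the number as a term, called the replicate block, is given where it changes a call: it called 2 members in each genotype, where 17.6% and 14.4% of all genes were called. DESeq2 with the block (25.5% and 22.5% of its genes) and limma-voom with the block (11.4% and 14.5%) also called 2 in each, so these counts of 10 lie near the shares of all genes. Apart from the sort marker Itga5, edgeR with the block called 1 of the other 9 in each genotype.

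Itga3, whose product binds laminin-332 laid down by the moving keratinocytes, had 219, 223 and 204 CPM in RORgt deficient A5-POS, against 183, 200 and 117 CPM in RORgt deficient A5-NEG libraries. WT A5-POS libraries had 285, 259 and 139 CPM, against 134, 180 and 116 CPM in WT A5-NEG libraries. The fractions did not overlap in RORgt deficient mice and overlapped in WT mice, while A5-POS was the higher of the pair with the same number in 6 of 6 pairs, as for 18.4% of all genes. The log2 change was 0.37 ± 0.27 (adjusted p = 0.431) in RORgt deficient and 0.67 ± 0.27 (adjusted p = 0.184) in WT mice in the 4-group fit of edgeR. With the replicate block it was 0.42 ± 0.17 (adjusted p = 0.105) in RORgt deficient mice and 0.64 ± 0.17 (adjusted p = 0.0294) in WT mice, where it passed. That call in WT mice was lost when any library but WT A5-POS 3 was left out (adjusted p up to 0.132).

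Itga1, a collagen-binding chain, was low throughout, with 7.57, 4.35 and 4.37 CPM in RORgt deficient A5-POS, against 3.80, 1.46 and 2.29 CPM in RORgt deficient A5-NEG libraries. In WT mice it had 5.25, 4.74 and 5.08 CPM in A5-POS, against 3.98, 3.42 and 1.66 CPM in A5-NEG libraries. The fractions did not overlap in either genotype, as for Itga5, where 14.3% and 15.9% of all genes were higher in A5-POS with no overlap in RORgt deficient and WT mice. The change of 1.10 ± 0.40 in RORgt deficient mice had an adjusted p of 0.135 in the 4-group fit of edgeR and passed with the block (1.12 ± 0.31, adjusted p = 0.0301). The block's call was lost when any 1 of the 6 libraries was left out (adjusted p 0.0535 to 0.120). In WT mice the change was 0.73 ± 0.39 (edgeR, adjusted p = 0.313, with the block 0.106). Itga1 shares 685 exon bases with Gm49395 on the same strand, so reads there could be counted for either.

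Itga2, the alpha chain of the collagen receptor that keratinocytes use on dermal matrix, had 51.0, 185 and 50.01 CPM in RORgt deficient A5-POS, against 106, 168 and 40.2 CPM in RORgt deficient A5-NEG libraries. WT A5-POS libraries had 33.0, 80.0 and 26.9 CPM, against 29.5, 70.2 and 29.6 CPM in WT A5-NEG libraries. Library 2 was the highest of every group, and the fractions overlapped in both genotypes. Itga9, whose product binds tenascin-C, had 7.55, 3.65 and 7.27 CPM in RORgt deficient A5-POS, against 5.43, 1.17 and 6.25 CPM in RORgt deficient A5-NEG libraries. It had 1.75, 3.21 and 2.86 CPM in WT A5-POS, against 10.3, 0.989 and 2.34 CPM in WT A5-NEG libraries, where library 1 alone was high. That library also had the most macrophage and monocyte marker RNA of the 12, at 1642 CPM, and the most Langerhans and dendritic cell marker RNA, at 3507 CPM, and the part of these cells was not tested.

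Itgb1, the common partner of these alpha chains, had 504, 1002 and 689 CPM in RORgt deficient A5-POS, against 585, 857 and 453 CPM in RORgt deficient A5-NEG libraries, and 535, 635 and 463 CPM in WT A5-POS, against 382, 591 and 436 CPM in WT A5-NEG libraries. It was higher in A5-POS in 5 of 6 pairs, and the fractions overlapped. The log2 change was 0.21 ± 0.28 in each genotype (edgeR, adjusted p = 0.685 in RORgt deficient and 0.689 in WT mice), with 95% intervals from -0.40 to 0.82. Itga5 mRNA per kb came to 17.6%, 10.1% and 16.4% of Itgb1 mRNA in RORgt deficient A5-POS, against 7.64%, 5.91% and 8.66% in RORgt deficient A5-NEG libraries. It came to 13.2%, 13.2% and 17.4% in WT A5-POS, against 11.3%, 5.90% and 8.78% in WT A5-NEG libraries. The fractions did not overlap in either genotype. They were sorted on alpha5, so this ratio checks the sort and is given as a description.

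Itgav lay the other way from Itga5 in most pairs. It had 202, 483 and 273 CPM in RORgt deficient A5-POS, against 385, 426 and 316 CPM in RORgt deficient A5-NEG libraries. The values in WT mice were 151, 259 and 200 CPM in A5-POS, against 180, 338 and 247 CPM in A5-NEG libraries. A5-POS was the higher in 1 of 6 pairs, that of RORgt deficient libraries 2, and the fractions overlapped. The changes of -0.24 ± 0.32 in RORgt deficient and -0.33 ± 0.32 in WT mice did not pass (edgeR, adjusted p = 0.690 and 0.577), with intervals from -0.92 to 0.45 and from -1.02 to 0.36. Itgav shares 634 exon bases with Gm13684 on the opposite strand, and no source used here says whether counting used strand.

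Of the partners of alphav, Itgb6 had 137, 375 and 161 CPM in RORgt deficient A5-POS, against 210, 300 and 147 CPM in RORgt deficient A5-NEG libraries, and 77.3, 177 and 115 CPM in WT A5-POS, against 84.5, 163 and 114 CPM in WT A5-NEG libraries. The fractions overlapped in both genotypes. Its log2 change was 0.03 ± 0.42 in each genotype (edgeR, adjusted p = 0.969 in RORgt deficient and 0.974 in WT mice), and the sign turned under other settings, to -0.07 with the block in RORgt deficient mice and to -0.00594 with RLE size factors in WT mice. The 95% interval in WT mice ran from -0.88 to 0.94, and with the block from -0.43 to 0.43. Itgb5, the vitronectin receptor's beta chain, had 149, 129 and 146 CPM in RORgt deficient A5-POS, against 149, 148 and 161 CPM in RORgt deficient A5-NEG libraries, and 104, 124 and 164 CPM in WT A5-POS, against 126, 142 and 169 CPM in WT A5-NEG libraries. A5-POS was the lower in 6 of 6 pairs, as for 15.5% of all genes, by small amounts (-0.11 ± 0.17 and -0.15 ± 0.17 in RORgt deficient and WT mice, edgeR adjusted p = 0.718 and 0.620). Itgb8, which with alphav activates latent TGF-beta, had 25.2 to 45.0 CPM in RORgt deficient A5-POS, 28.4 to 51.0 CPM in RORgt deficient A5-NEG, 31.1 to 44.6 CPM in WT A5-POS and 29.02 to 43.9 CPM in WT A5-NEG libraries, with overlap throughout.

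**Figure D3:**
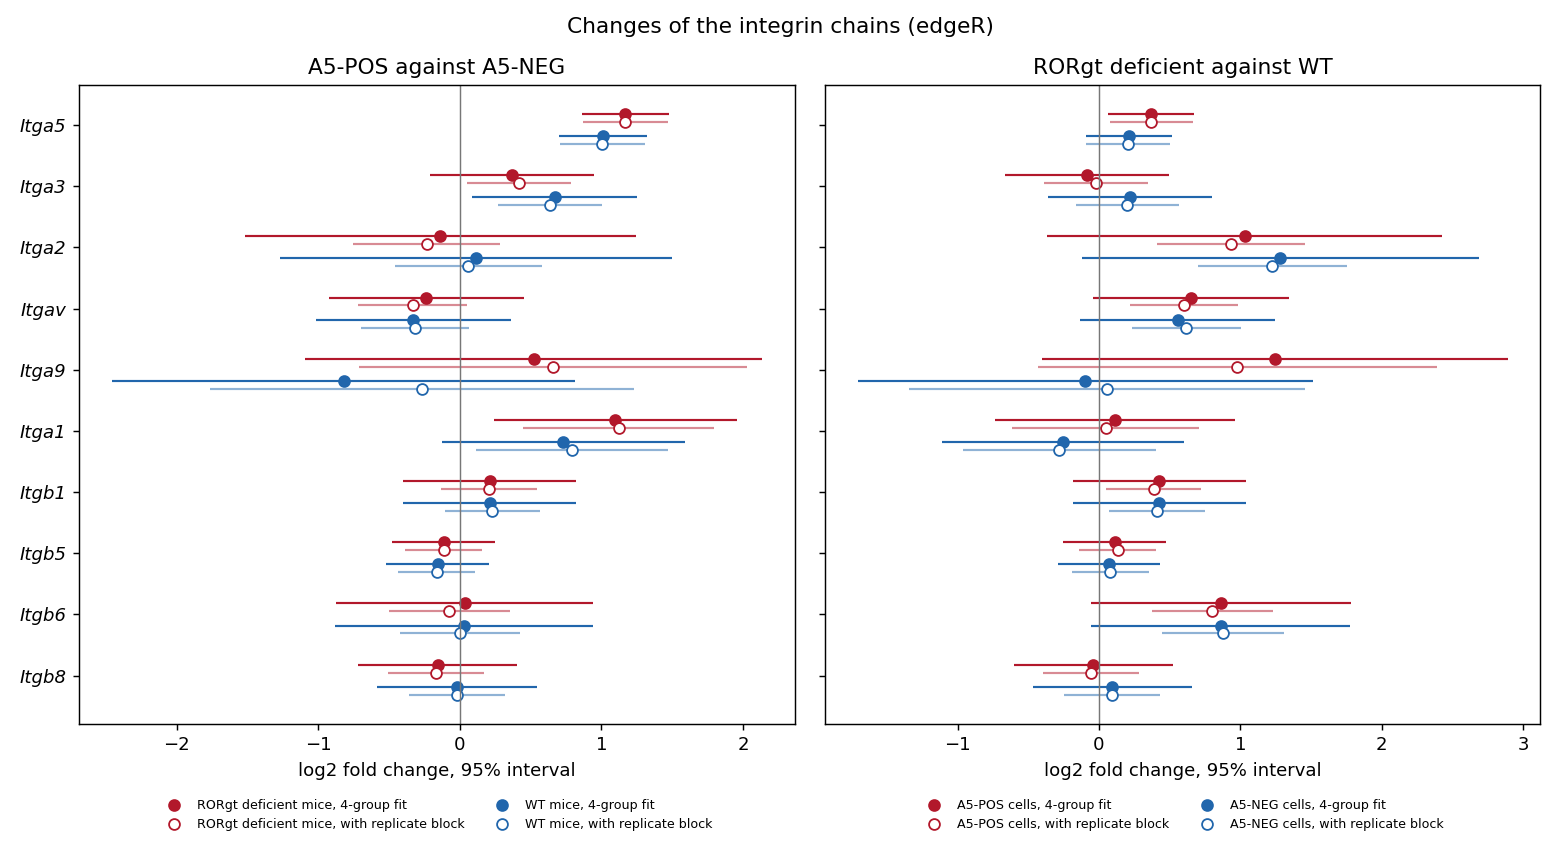
Log2 fold changes with 95% intervals of the 10 chains, A5-POS over A5-NEG at left and RORgt deficient over WT at right. Filled points are from the edgeR fit of the 4 groups and open points from the fit with the replicate block. Itga5 stood at 1.17 and 1.01 at left, where the intervals with the block also lay above 0 for Itga3 and Itga1 in both genotypes. At right they lay above 0 for Itga2, Itgav, Itgb6 and Itgb1 in both fractions and for Itga5 in A5-POS cells. The intervals are not adjusted for the number of genes. After adjustment only Itgb6 in A5-POS cells passed at right with the block. At left Itga5 passed in both genotypes, Itga3 in WT mice and Itga1 in RORgt deficient mice.

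The comparison of RORgt deficient with WT mice asked whether integrin mRNA of the wound keratinocytes differs with the genotype. In the 4-group fit none of the 10 chains passed in A5-POS or in A5-NEG cells, where 0.006% of all genes were called in each (edgeR, with 1 and 0 members at an unadjusted p under 0.05, where 15% and 5.09% of all genes were). DESeq2 and limma-voom without the block called 0 members in either fraction, where they called 3.67% and 0.03% of genes in A5-POS and 0.126% and 0.042% in A5-NEG cells. The median log2 change of the 10 was 0.40 in A5-POS and 0.22 in A5-NEG cells, against 0.00 for all genes in both. With the replicate block, Itgb6 was called in A5-POS cells, 1 of 10 members where 4.02% of genes were called, and none in A5-NEG cells, where 0.006% were. DESeq2 with the block called Itgav, Itgb6 and Itga2 in both fractions, where it called 14.8% of its genes in A5-POS and 5.37% in A5-NEG cells. Limma-voom with the block called these 3 in A5-POS cells, where it called 4.15% of genes, and 0 in A5-NEG cells, where it called 0.012%.

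Itgb6, a chain made mainly by epithelia, had 137, 375 and 161 CPM in RORgt deficient A5-POS libraries, against 77.3, 177 and 115 CPM in WT A5-POS libraries. The values in A5-NEG cells were 210, 300 and 147 CPM in RORgt deficient, against 84.5, 163 and 114 CPM in WT libraries. In each pair with the same number the RORgt deficient library was the higher, yet the groups overlapped because library 2 was high in both genotypes. The log2 change was 0.86 ± 0.42 in A5-POS and 0.86 ± 0.42 in A5-NEG cells in the 4-group fit (edgeR, adjusted p = 0.355 and 0.779). With the block it was 0.80 ± 0.20 (adjusted p = 0.0464) in A5-POS and 0.88 ± 0.20 (adjusted p = 0.157) in A5-NEG cells. The call in A5-POS cells was lost when any library but WT A5-POS 3 was left out (adjusted p up to 0.208), and the change ran from 0.62 to 0.97.

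Itgav mRNA was at 202, 483 and 273 CPM in RORgt deficient A5-POS, against 151, 259 and 200 CPM in WT A5-POS libraries, a log2 change of 0.65 ± 0.32 (edgeR, adjusted p = 0.354, with the block 0.60 ± 0.17 and 0.0722). In A5-NEG cells it was at 385, 426 and 316 CPM in RORgt deficient, against 180, 338 and 247 CPM in WT libraries, a change of 0.56 ± 0.32 (edgeR, adjusted p = 0.779, with the block 0.173). RORgt deficient was the higher in 6 of 6 pairs, and the groups overlapped. Itga2 was at 51.0, 185 and 50.01 CPM in RORgt deficient A5-POS, against 33.0, 80.0 and 26.9 CPM in WT A5-POS libraries, a change of 1.03 ± 0.64 (edgeR, adjusted p = 0.453, with the block 0.93 ± 0.24 and 0.0527). In A5-NEG cells the values were 106, 168 and 40.2 CPM in RORgt deficient, against 29.5, 70.2 and 29.6 CPM in WT libraries, a change of 1.28 ± 0.64 (edgeR, adjusted p = 0.779, with the block 0.127). Here too RORgt deficient was the higher in 6 of 6 pairs, with overlap between the groups.

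Itga5 itself had 107, 122 and 137 CPM in RORgt deficient A5-POS, against 85.1, 101 and 97.2 CPM in WT A5-POS libraries, with no overlap. Among all genes, 9.04% were higher in RORgt deficient A5-POS libraries with no overlap, and of the 10 chains Itga5 and Itga9 were. In A5-NEG cells 7.33% of genes and 0 of the 10 chains were. The log2 change of Itga5 was 0.37 ± 0.14 in A5-POS cells (edgeR, adjusted p = 0.264, with the block 0.126) and 0.21 ± 0.14 in A5-NEG cells (adjusted p = 0.779, with the block 0.490). Itgb1 was the higher in RORgt deficient in 5 of 6 pairs, all but A5-POS libraries 1, with changes of 0.43 ± 0.28 in A5-POS and 0.43 ± 0.28 in A5-NEG cells (edgeR, adjusted p = 0.478 and 0.779). The 4 chains Itga5, Itgav, Itgb6 and Itga2 were thus higher in RORgt deficient mice in 6 of 6 pairs, as were 9.89% of all genes. The labels do not say whether A5-POS and A5-NEG libraries of 1 number share mice, so the 6 pairs may not be independent. The sum of fibroblast markers moved with the genotype as well in A5-POS cells, at 9996 to 16956 CPM in RORgt deficient, against 3950 to 8659 CPM in WT libraries, with 0 of its 16 genes called in the 4-group fit. Its part in the values of the chains was not tested. In A5-NEG cells that sum was 68.7 to 530 CPM in RORgt deficient and 97.7 to 245 CPM in WT libraries. No chain passed between genotypes in the 4-group fit in either fraction.

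**Figure D4:**
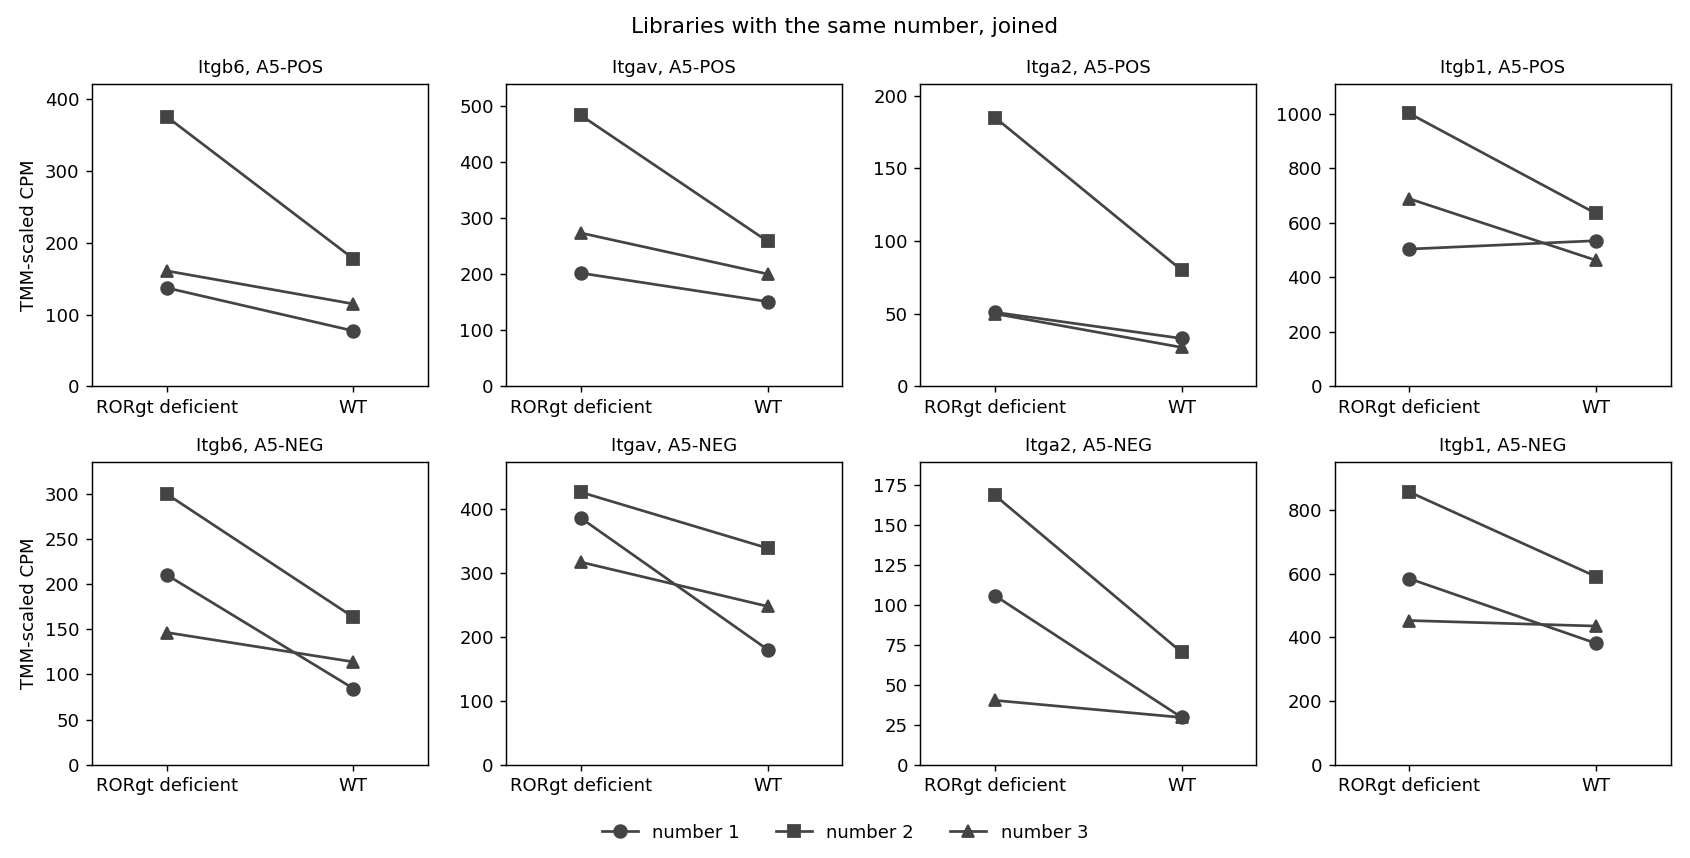
Levels in TMM-scaled CPM of Itgb6, Itgav, Itga2 and Itgb1 in RORgt deficient (left) and WT (right) libraries, with libraries of the same number joined, for A5-POS (top) and A5-NEG cells (bottom). Lines of the first 3 genes fall from left to right in all 6 pairs, and number 2 lies highest in every group for all 4 genes.

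How far a chain followed the library number differed among the 10. The number took 88.6% of the squared deviation from the group means of log2 CPM for Itga2, 82.7% for Itgb6, 77.1% for Itgb1 and 76.1% for Itgav, against 6.02% for Itga5 and a median of 46.4% over all genes tested. In Itga2, Itgb6, Itgb1 and Itgav, library 2 was the highest of its group in 4 of 4 groups, as for 9.37% of all genes. Itgb8 was highest in library 3 (3.92% of genes) and Itga1 in library 1 (4.69%) of all 4 groups. The labels do not say what a number stands for, and mice and sequencing run cannot be told apart in it. Depth was 51694159 to 74563616 counts in number 1, 33214238 to 38057652 in number 2 and 29293687 to 37746642 in number 3. Mitochondrially encoded genes took 0.312% to 0.365% in number 2 and 0.459% to 0.853% in numbers 1 and 3. The part of either in these levels was not tested.

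Among 17 other integrin genes, 14 were tested. In RORgt deficient mice 3 rose and 1 fell in A5-POS against A5-NEG cells in the 4-group fit, where 5.52% of all genes were called, and in WT mice none passed, where 3.45% were. The block called 3 that rose and 1 that fell in RORgt deficient mice (17.6% of all genes) and 4 that rose in WT mice (Itga11, Itga2b, Itga7 and Itgb4, against 14.4% of all genes). Leaving out 1 library left 1 to 2 calls in RORgt deficient mice in the 4-group fit, and with the block 1 to 3 in RORgt deficient and 0 to 3 in WT mice. The median log2 change of the list was -0.33 in RORgt deficient and -0.02 in WT mice, against 0.00 and 0.03 for all genes. Itga11, a collagen receptor chain of fibroblasts, had 9.41, 8.16 and 7.27 CPM in RORgt deficient A5-POS, against 0.407, 0.573 and 0.635 CPM in RORgt deficient A5-NEG libraries (3.96 ± 0.63, edgeR adjusted p = 0.00302). In WT mice it had 4.29, 5.34 and 2.96 CPM in A5-POS, against 1.81, 0.169 and 0.542 CPM in A5-NEG libraries (2.28 ± 0.58, edgeR adjusted p = 0.0567, with the block 0.0198). The fibroblast markers, of which 13 of 16 rose in each genotype, moved with it, and their part was not tested. Itgal, a leukocyte chain, fell to 0.285, 0.365 and 0.392 CPM in RORgt deficient A5-POS, against 2.09, 0.601 and 2.41 CPM in RORgt deficient A5-NEG libraries (-2.29 ± 0.57, edgeR adjusted p = 0.0358). Itga2b, a platelet chain, rose by 0.74 ± 0.19 in RORgt deficient mice (edgeR, adjusted p = 0.0418), and Itga8, named after its values were seen, by 1.71 ± 0.45 (adjusted p = 0.0499). Leaving out a single library raised the adjusted p to as much as 0.147 for Itgal, 0.148 for Itga2b and 0.2001 for Itga8.

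Matrix proteins that these integrins bind, 21 genes with 20 tested, came next. In A5-POS against A5-NEG cells, 8 rose in RORgt deficient and 7 in WT mice and none fell, where 5.52% and 3.45% of all genes were called. Leaving out 1 library gave 7 to 9 calls in RORgt deficient and 3 to 6 in WT mice. The list had median log2 changes of 0.70 and 0.50, against 0.00 and 0.03 for all genes. Ltbp1, which holds latent TGF-beta in matrix, had 181, 139 and 175 CPM in RORgt deficient A5-POS, against 33.7, 36.3 and 33.6 CPM in RORgt deficient A5-NEG libraries. It had 113, 118 and 111 CPM in WT A5-POS, against 39.1, 46.3 and 38.8 CPM in WT A5-NEG libraries. The fractions were far apart in both genotypes, by 2.26 ± 0.13 in RORgt deficient and 1.46 ± 0.13 in WT mice (edgeR, adjusted p = 6.74e-06 and 0.00013). The collagen chains Col3a1 (6.31 ± 0.86 and 5.31 ± 0.82, adjusted p = 0.00108 and 0.0052) and Col1a2 (5.87 ± 0.90 and 5.09 ± 0.87, edgeR adjusted p = 0.00237 and 0.00822) rose in RORgt deficient and WT mice. Both of these, and Col1a1, are also in the list of fibroblast markers. Tnc, the tenascin-C gene and named after its values were seen, had 469, 491 and 529 CPM in RORgt deficient A5-POS, against 151, 85.0 and 54.7 CPM in RORgt deficient A5-NEG libraries, and 268, 401 and 330 CPM in WT A5-POS, against 54.2, 151 and 71.8 CPM in WT A5-NEG libraries. It rose by 2.35 ± 0.40 in RORgt deficient and 1.85 ± 0.39 in WT mice (edgeR, adjusted p = 0.00466 and 0.0250). The call in WT mice was lost without A5-POS 2 or 3 or A5-NEG 1 or 3 (adjusted p up to 0.138).

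Between genotypes no ligand passed in the 4-group fit in either fraction, and with the block Ltbp1, Thbs1 and Fn1 rose in A5-POS cells, by 0.54 ± 0.12, 1.05 ± 0.24 and 0.95 ± 0.22 (edgeR with the block, adjusted p = 0.0404, 0.0422 and 0.0419), 3 of 20 where 4.02% of all genes were called. The sum of fibroblast markers was higher in RORgt deficient A5-POS libraries too, as given above, and its part was not tested. Fn1, the gene of fibronectin, which alpha5beta1 binds, had 168, 88.2 and 117 CPM in RORgt deficient A5-POS, against 53.2, 57.5 and 72.4 CPM in WT A5-POS libraries, with no overlap. Each of these 3 calls was lost when any 1 of 5 of the 6 libraries was left out. The median log2 change of the ligands was 0.55 in A5-POS and 0.33 in A5-NEG cells, against 0.00 for all genes in both.

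The adaptors and activators that tie integrins to actin, 29 genes with 28 tested, had median log2 changes of 0.13 in RORgt deficient and 0.08 in WT mice for A5-POS against A5-NEG cells, against 0.00 and 0.03 for all genes. In the 4-group fit 1 rose in each genotype, and it was Parva, which codes for alpha-parvin, a partner of integrin-linked kinase. Parva had 100, 69.0 and 99.0 CPM in RORgt deficient A5-POS, against 55.2, 36.5 and 48.2 CPM in RORgt deficient A5-NEG libraries, and 104, 86.7 and 79.3 CPM in WT A5-POS, against 54.3, 54.9 and 50.6 CPM in WT A5-NEG libraries. The fractions did not overlap, and the changes were 0.94 ± 0.18 in RORgt deficient and 0.76 ± 0.18 in WT mice (edgeR, adjusted p = 0.0106 and 0.0450). In WT mice the call was lost when any 1 library was left out (adjusted p up to 0.177), and in RORgt deficient mice without A5-POS 1 or 3 or A5-NEG 2 (adjusted p up to 0.0542). With the block 4 rose and 2 fell in RORgt deficient mice and 1 rose and 2 fell in WT mice, where 17.6% and 14.4% of all genes were called, and leaving out 1 library gave 2 to 5 and 0 to 4 calls. Between genotypes none passed in the 4-group fit, and the block called Rap1b, which rose in A5-POS cells, 1 of 28 where 4.02% of all genes were called (0 to 2 leaving out 1 library).

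The genes whose profile over the 12 libraries was nearest to that of Itga5, by the root mean square difference of log2 CPM centred on each gene's mean among 9070 genes, were Tpst1 (0.175), Chpf (0.214), Col4a1 (0.219), Lamb1 (0.233) and Prc1 (0.241). Tpst1 averaged 31.4 CPM in RORgt deficient A5-POS, 13.1 CPM in RORgt deficient A5-NEG, 24.4 CPM in WT A5-POS and 13.4 CPM in WT A5-NEG libraries. Col4a1 averaged 137.8, 61.8, 100.9 and 48.1 CPM in the same order. When profiles were centred within each library number, 3 of these 5 remained among the nearest 5. The nearest of the other chains was Itga3, at rank 512 with a difference of 0.466, before Itgb1 at rank 1720. The rest of those in the ranking lay between ranks 5351 and 8778.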

How the data were processed

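Per the submitters' processing notes, reads were handled with bcl2fastq, Trimmomatic 0.36, STAR and featureCounts on mm10 (GRCm38), and per the labels' protocols the kits were SMART-Seq v4 and ThruPLEX. No source used here gives the annotation release, the strand setting or what was done with multimapping reads. The authors deposited raw counts, whole numbers by gene symbol with no normalization. Of 55341 rows, 26 with symbols turned into dates (0.110% to 0.128% of a library) were left out, and the 55315 others all have a gene of that name in GENCODE M21.

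Counts were fitted with edgeR 4.0.16 in R 4.3.3: TMM factors (0.919 to 1.08), filterByExpr, the 4 groups in 1 model of 12 libraries, the quasi-likelihood test, and Benjamini-Hochberg adjustment over 16677 genes within each of 5 comparisons at a threshold of 0.05. Each library is a pool of mice, so p-values rest on the spread among pools. The 4-group fit took all 12 libraries as independent, and the labels do not say whether A5-POS and A5-NEG libraries of 1 number share mice. Errors are the SE of a log2 change or the SD of 3 libraries, and intervals are 95%. A check of the genotype labels by the targeted gene is not reported here. Libraries of a group differed by more than counting error (chi-square per degree of freedom 59.3 to 168). The fits with and without the replicate block were also run on counts simulated from the fit with the block. This covered A5-POS against A5-NEG in WT mice only, and its outcome is not given here.

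The labels number the libraries of a group, and residuals over 9071 genes correlated above 0.1 for each of the 18 same-number pairs (0.153 to 0.722, median 0.452), with a median of -0.24 for the 36 others. Residuals of a group sum to 0, so the negative median largely follows from the positive one and is no separate evidence. From the same-number correlations the numbers were taken to pair the libraries, and the fit with the number as a replicate block stands beside a result where it changes a call. Other alternatives were RLE size factors, DESeq2 1.42.0, limma 3.58.1 voom with quality weights, no filter, a CPM of at least 5 in 3 libraries, only the libraries compared, and each library left out in turn. DESeq2 and voom with the block, and dropping a whole number, were added after seeing the data.

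The members, lists and naming rule were chosen with earlier results of these data known. The rule named all 10 members, up to 3 called genes of a list with the smallest p in a comparison, and the 5 genes nearest to Itga5 among genes whose log2 CPM averaged 3 or more. Sequences are from RefSeq (GRCm38.p6).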

Additional observations from a re-analysis of the deposited data

How the results depend on the processing

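Changing 1 choice at a time, 235 recomputed changes of the chains kept their direction and side of the threshold, 3 passed it newly, 3 lost it and 8 turned their sign. Dropping all libraries of a number was counted as a choice here. The 3 lost calls all came from it: Itga5 without number 2 or 3 in WT mice and without number 3 in RORgt deficient mice. With DESeq2 or voom and the block together, 35 kept both, 13 passed newly and 2 turned, and leaving out 1 library, 297 kept both, 2 passed newly and 13 turned. The replicate block, DESeq2 with the block and voom with the block each called 2 of the 10 chains for A5-POS against A5-NEG in RORgt deficient and in WT mice, against 1 in the 4-group fit. Between genotypes in A5-POS cells these called 1, 3 and 3, against 0, and in A5-NEG cells DESeq2 with the block called 3, against 0. The block changed no other call of a chain. Without all libraries of number 3 the count for A5-POS against A5-NEG was 0 in both genotypes, and without number 2 it was 0 in WT mice. Leaving out 1 library gave counts of 1 to 2 for A5-POS against A5-NEG in WT mice and of 0 to 1 between genotypes in A5-POS cells, both with the block.

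The turned signs were those of Itgb6, Itgav and Itgb1 for A5-POS against A5-NEG, which none of these settings called. Itgb6 in A5-POS against A5-NEG of WT mice came to -0.00594 with RLE factors, -0.00582 with DESeq2, -0.00590 with the stricter filter, -0.0353 with DESeq2 and the block, and -0.0677 without number 2, and from -0.34 to 0.29 leaving out 1 library. In RORgt deficient mice it came to -0.0723 with the block, -0.0829 with voom, -0.0772 with DESeq2 and the block and -0.269 without number 2, and from -0.58 to 0.31 leaving out 1 library. Itgav in RORgt deficient mice came to 0.0261 without number 1, and Itgb1 ranged from -0.11 to 0.48 leaving out 1 library. The cause was not tested.

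Over all genes, edgeR, DESeq2, voom and the block called 921, 1723, 1566 and 2937 genes for A5-POS against A5-NEG in RORgt deficient mice and 575, 1454, 989 and 2394 in WT mice. Between genotypes they called 1, 493, 5 and 670 in A5-POS and 1, 21, 7 and 1 in A5-NEG cells, and for the interaction 0, 8, 0 and 0. The rank of the chains per kilobase was the same for 8 of 10 with the length of the longest transcript and for 10 of 10 with unscaled CPM, and of the 5 genes nearest to Itga5, 3 were shared when centred within numbers. Of the named list genes, 14 recomputed changes passed newly and 29 lost the call with 1 choice changed, dropping a number included. With the tool and the block changed together, 8 passed newly and 1 lost the call. Leaving out 1 library ended 43 and added 9. Itga9 and Itga1 had as few as 35 and 51 counts in a library, which limits their precision.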
